A study of Mus musculus with 6 samples.

Results

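The report covers 10 genes at the nuclear end of Notch signalling: the helix-loop-helix repressor genes Hes1, Hes5, Hey1, Hey2 and Heyl, the feedback inhibitor gene Nrarp, the fringe genes Lfng, Mfng and Rfng, and Rbpj. Their members were all array probe sets, sets of short probes for a transcript, that the platform annotation assigns to 1 of these genes and to no other. There were 18 such probe sets among 45037 (controls left out), and the 10 genes are among 18193 with a probe set of their own. The rule goes by gene name and uses no measured value, although the list of genes was drawn up with earlier results of these data known. The tissue was the outflow tract, the tube that carries blood out of the heart, taken from CD1 mouse embryos at embryonic day 10.5 and cut into superior and inferior subdomains. Per the labels, 6 littermates were combined for each pool, while the design text speaks of 7 dissections. Pools 1, 6 and 7 were measured in both regions, so there were 3 superior and 3 inferior arrays, and the labels name no genotype or treatment that separates them. The pools, and not embryos, were the replicates. The p-values of the main fit rest on how the region difference varies between these pools, with variance shared across probe sets. The comparison asks whether Notch target expression differs between the subdomains.

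Notch is a receptor that meets ligands on neighbouring cells. Once bound, its inner part is cut free, enters the nucleus and joins RBPJ, a DNA-binding protein that otherwise holds target genes down. The Hes and Hey genes are the classic targets, and their proteins repress other genes. Nrarp is a target too, and its protein limits the signal. Fringe enzymes add a sugar to Notch and so alter which ligands it answers. In the heart, Notch is active in the endocardium, where it acts in cushion formation, and Hey2 is best known from ventricular muscle while Hey1 is best known from the atria.

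RBPJ recognises a core of the letters TGGGAA, often within GTGGGAA. Both were searched on both strands of the promoter windows of RefSeq (build GRCm38.p6), which run from 250 bases before to 50 bases after a gene's start. GTGGGAA contains TGGGAA, so each GTGGGAA match is also a TGGGAA match. The E-box CACGTG, a sequence that helix-loop-helix proteins can bind, was searched as well. Of the 10 genes, 6 had an entry: Hey2, Hes5, Nrarp, Lfng, Rfng and Rbpj. They had 7 windows, since Rbpj had 2 that overlap. GTGGGAA stood in 3 of the 7 windows, each of a different gene, against 6.38% of all 32851 windows. TGGGAA stood in 5 of the 7, from 4 of the 6 genes (25.6% of all windows). CACGTG stood in 2 of the 7, those of Nrarp and Lfng (7.15%). The Hey2 window is printed whole because Hey2 had the largest region difference among the tested members. It lies at chr10:30842734-30843033 on the minus strand, and the capitals mark GTGGGAA or its reverse complement TTCCCAC, which begin 207 and 4 bases before the start.
Hey2: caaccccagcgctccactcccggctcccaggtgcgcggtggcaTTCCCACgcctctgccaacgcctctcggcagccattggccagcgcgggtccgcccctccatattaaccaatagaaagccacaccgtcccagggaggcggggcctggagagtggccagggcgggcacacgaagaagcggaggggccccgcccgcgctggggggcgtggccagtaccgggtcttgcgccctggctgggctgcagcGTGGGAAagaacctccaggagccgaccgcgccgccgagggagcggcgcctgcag
The other windows with GTGGGAA belong to Hes5 (chr4:154960685-154960715 and chr4:154960828-154960858, plus strand) and Lfng (chr5:140607220-140607250, plus strand), and the stretch around each match is printed for comparison with Hey2. In Lfng the match overlaps the CACGTG. A match is a run of letters, and the arrays do not measure binding to it.
Hes5, first match: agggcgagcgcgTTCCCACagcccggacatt
Hes5, second match: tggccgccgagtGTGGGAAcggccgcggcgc
Lfng: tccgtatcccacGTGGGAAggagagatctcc

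Signals are on a linear intensity scale. A signal over 8.0, the highest of 27 bacterial control probe sets, is called above background. Only probe sets whose mean over the arrays exceeded the median of all, a signal of about 15.1, entered the tests, and 14 of the 18 member probe sets, from 9 genes, passed this filter. Hes5 did not pass with either of its probe sets. Differences are given as superior minus inferior on the scale of log2(signal + 3.2), which understates the change of dim genes, with the standard error (SE) of a limma fit that compares the regions within each pool number. The heart muscle genes Tnnt2 and Actc1 had mean signals of 4093.3 or more in both regions. Of the 9 nerve cell markers with a probe set of their own, Dcx, Neurod1 and Neurog2 were not above background on any array. Others were on all 6, such as Stmn2 at 194.2 to 297.9 and Tubb3 at 119.7 to 217.6, and 5 of the 9 passed the filter. The array of superior pool 6 stood apart in its hybridisation controls, at 1.63 times the median array, where the other 5 arrays lay between 0.86 and 1.02. Both pool 1 arrays had high values of the ratio of the 3′ to the 5′ Gapdh control, at 1.30 and 2.21, against 0.83 to 0.90 on the other 4. A high ratio is a sign of lower RNA integrity. The Actb ratio was highest in pool 1 as well, at 2.23 and 2.26, against 1.45 to 1.87 on the other 4.

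No member was called as different between the regions. Hey2 had the largest difference among the tested members, a signal about 1.32-fold higher in superior pools, but missed the threshold. Hes1, Mfng and Hey1 had the lower signal in the superior array of every pool, by a small margin for Hey1. The fit called 0 of the 14 tested member probe sets at an adjusted p threshold of 0.05 (limma, Benjamini-Hochberg), where it called 0.160% of all 22518 probe sets. At an unadjusted p under 0.05 it passed 1 of 14, against 11.0% of all. Without the pool number in the fit, limma called 0 of 14, and 1 passed at an unadjusted p under 0.05, against 3.52% of all. The 3 pools agreed in sign for 5 of 14 member probe sets (34.0% of all tested). Of these, 2 were higher in superior in every pool (15.0% of all tested) and 3 lower (19.0%). For 1 of 14, Hey2, the regions did not overlap (9.21% of all tested). The median difference was 0.06 over the 14, against -0.02 over all tested, and 0.09 over all 18. With 1 probe set per gene, the brightest, it turned to -0.05 over the 9 tested genes, 4 higher and 5 lower, so the members share no direction. The median size regardless of sign was 0.14 over the 14 and 0.12 over all tested. The members' shares lay near those of all tested probe sets.

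**Figure D1:**
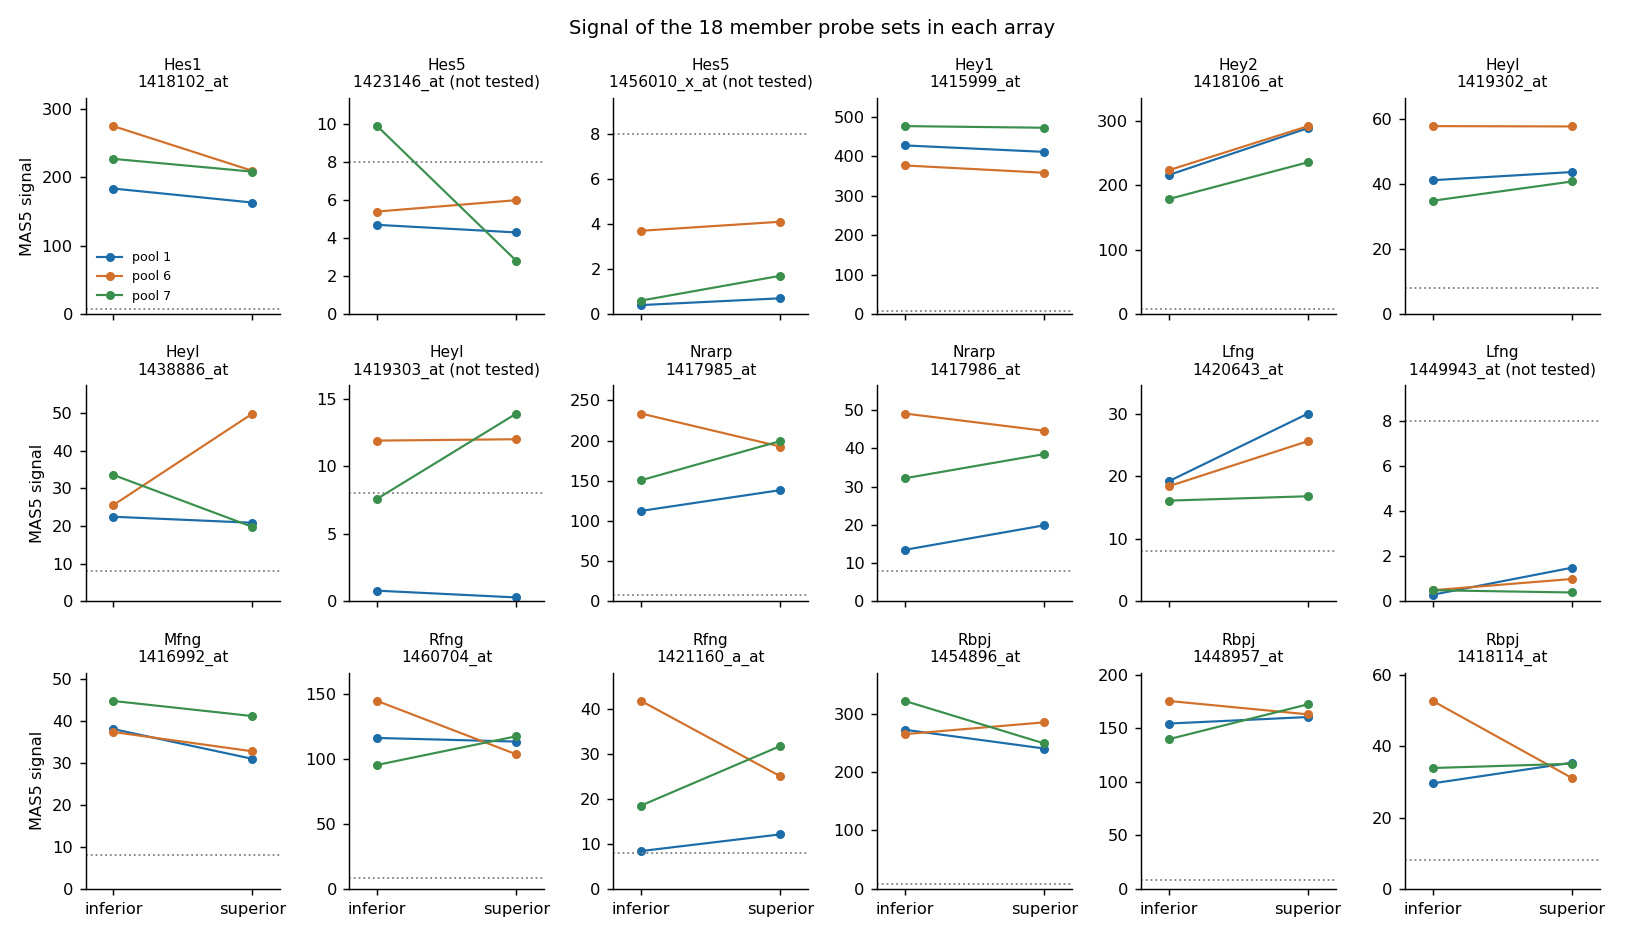
Linear MAS5 signal (y axis, from 0) of each of the 18 member probe sets in the inferior and superior arrays (x axis), with a line joining the arrays of each pool and the background level of 8.0 dotted. Hey2 lines run upward in parallel, Hey1 lines are nearly flat, and the Rbpj and Rfng lines cross.

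Hey2, a repressor of the Hey family, had signals of 288.4, 291.4 and 235.4 in superior pools 1, 6 and 7, and of 215.7, 223.1 and 178.4 in the matching inferior pools. Every superior value lay above every inferior value, and pool 7 was the lowest of its region on both sides. The mean was 271.7 ± 31.5 (SD, n = 3) in superior and 205.7 ± 24.0 (SD, n = 3) in inferior pools. The difference was 0.41, 0.38 and 0.39 on the log2 scale in pools 1, 6 and 7. The pools therefore gave nearly the same difference, with an SD of 0.017, and 0.568% of tested probe sets had a smaller one. In limma the difference was 0.40 ± 0.09 (SE; 95% interval 0.18 to 0.61) with an adjusted p of 0.236, and by its p Hey2 ranked 243 of 22518. This SE draws on the spread of all probe sets and is larger than the plain SE of the 3 pool differences, 0.010. At the p of the last called probe set, Hey2 with its SE would have needed a difference of 0.66. A two-sided exact permutation test of the 6 arrays gave p = 0.1, the smallest that 3 against 3 allow. That test ignores the pool numbers and gives this p whenever the regions do not overlap, so it adds nothing to the lack of overlap. A difference of this size or larger was found in 6.35% of all tested probe sets. Without pool 6, which holds the array with bright controls, the Hey2 difference was 0.40 (limma adjusted p = 0.108). In that fit the calls over all probe sets rose from 36 to 231. The Hey2 difference was 0.40 without pool 7 (limma adjusted p = 0.291) and 0.39 without pool 1, and it was called in none of these.

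Markers of several cell types were unequal between the regions, some higher and some lower in superior pools. Chamber myocardium is the pumping muscle of the ventricles and atria, and 9 of its 10 tested genes had the higher mean in superior pools (49.2% of all genes). Irx4, a ventricular homeobox factor, was called. Over the 13 of these genes with a probe set of their own, the summed signal was 16739 to 19425 in superior and 12954 to 15322 in inferior arrays, without overlap. The myosin genes Myh7 and Myl2 had the highest mean signals in that sum. Taken by itself, Myh7 overlapped between the regions, while Myl2 did not. Of this list, Gja5 was not above background on any array. The ventricular light chain gene Myl2 had pool differences of 0.23, 0.73 and 0.47, and Nppa, an atrial peptide gene, had a difference of 2.24 (limma adjusted p = 0.0622). Of 12 tested epicardial genes, 12 were higher in superior pools and 5 were called: Aldh1a1, Aldh1a2, Tbx18, Tcf21 and Upk1b. The summed epicardial signal was 2572 to 3370 against 1958 to 2091, and Msln was not above background on any array. Of 14 endocardial and endothelial genes, 8 were higher in superior pools, 0 were called and 1 passed at an unadjusted p under 0.05, with a median difference of 0.02. Their summed signals of 2695 to 3251 in superior and 2772 to 3117 in inferior arrays overlapped. These 6 calls are those of the fit with the pool block, and limma without the block called none of them (adjusted p = 0.755 for Irx4 and 1 for the others). The fit without trend and robust variance called 0 probe sets in all. Genes of all heart muscle were higher in 9 of 12 cases, with 0 called, 5 at an unadjusted p under 0.05 and a median of 0.21. Their summed signals of 34142 to 38417 and 30575 to 31805 did not overlap. The bright Actc1, Myl7 and Myl4 gave 0.33, 0.26 and 0.28. Of the dimmer genes, Tnni3 and Myh6 gave 0.24 and 0.22, and Ttn, Mybpc3, Actn2 and Nkx2-5 gave -0.06, 0.02, -0.09 and -0.31. Some bright genes of other lists also lay above 0, such as Hbb-y at 0.24 and Col3a1 at 0.21, with Vcan at 0.06. The part of signal brightness in these sums was not tested. Of the neural crest genes, 5 of 6 were lower in superior pools, with a median of -0.32. Their sums of 229 to 308 against 349 to 428 also did not overlap, and Ednrb and Dlx2 had the highest mean signals in them. Sox10, at 0.31, was the 1 tested gene above 0, with pool differences of 0.52, 0.01 and 0.39 and signals of 12.1 to 21.8. Of that list Dlx6, Foxd3, Ret and Tfap2b were not above background on any array. Cushion mesenchyme had 9 of 12 genes lower (median -0.15) and the second heart field 5 of 8 (-0.11), with overlapping sums. Smooth muscle had 4 of 7 lower (-0.25), nerve cells 4 of 5 (-0.36), pharyngeal endoderm and surface ectoderm 2 of 3 (-0.23), and blood 6 of 8 higher (0.19). The smooth muscle list had no shared direction. Its medians within pools 1, 6 and 7 were 0.10, 0.04 and 0.02, and its bright genes Acta2, Tagln and Cnn1 were higher in superior in every pool. Its summed signal was 9427 to 11406 in superior and 8849 to 9516 in inferior arrays. In these 8 lists limma called 0 genes, and between 0 and 5 of a list passed at an unadjusted p under 0.05. The part of these cell types in the Hey2 difference was not tested. In pooled tissue, fewer cells of a type and less RNA per cell cannot be told apart.

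Hey1, the closest relative of Hey2 in this group, had signals of 411.6, 358.6 and 472.8 in superior and 427.9, 377.1 and 476.9 in inferior pools 1, 6 and 7. The pools set its order, with pool 7 highest and pool 6 lowest in both regions. Within each pool the superior value was slightly the lower one, by -0.06, -0.07 and -0.01. The difference was -0.05 ± 0.09 (SE; limma adjusted p = 0.883), and its 95% interval ran from -0.24 to 0.15. That interval leaves room for a modest difference either way.

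Heyl, the third Hey gene, was measured by 3 probe sets. The brightest, 1419302_at, had signals of 43.6, 57.6 and 40.7 in superior and 41.1, 57.7 and 34.8 in inferior pools 1, 6 and 7, a difference of 0.10 ± 0.14 (SE; limma adjusted p = 0.85). Pool 6 was the highest on both sides, and the regions overlapped. The probe set 1438886_at gave 20.9, 49.9 and 19.8 against 22.5, 25.6 and 33.6. Its mean difference of 0.04 hid pool differences of -0.09, 0.88 and -0.68, and it became -0.39 without pool 6. The high value there was the superior pool 6 array, the one with bright controls. The dim probe set 1419303_at was not tested. It was above background on 3 of 6 arrays, and read 0.3 and 0.8 in the pool 1 arrays but 7.6 to 13.9 in the others.

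Hes1, the Hes repressor found in many embryonic tissues, had signals of 163.1, 209.5 and 208.3 in superior and 183.6, 274.9 and 227.0 in inferior pools 1, 6 and 7. The superior value was the lower one within every pool, but the regions overlapped, since the inferior value of pool 1 lay below superior pools 6 and 7. The difference was -0.23 ± 0.10 (SE; 95% interval -0.46 to 0.01; limma adjusted p = 0.475), the lowest adjusted p after Hey2. Hes5, the Hes gene best known from neural progenitors, was near or below background. Its probe set 1423146_at read 2.8 to 6.0 in superior and 4.7 to 9.9 in inferior arrays, and 1 of 6 arrays, inferior pool 7, was above background. Its other probe set, 1456010_x_at, read 0.4 to 4.1 and was above background on none. No region difference can be read at these signals.

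**Figure D2:**
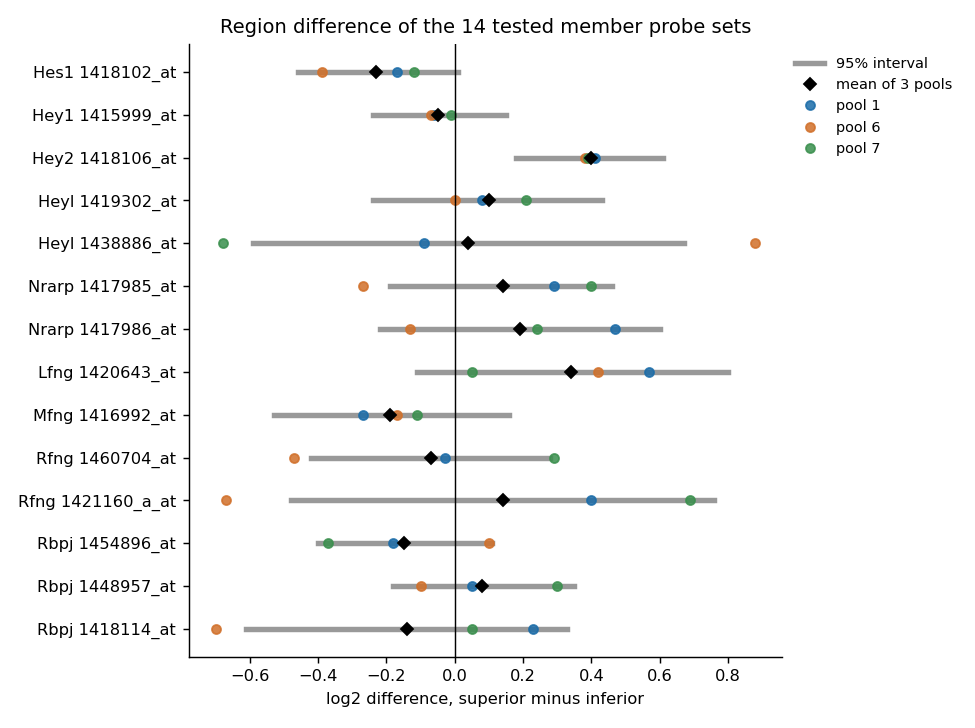
Log2 difference, superior minus inferior (x axis), of the 14 tested member probe sets (y axis): coloured points are the 3 pools, diamonds their mean and grey bars the 95% interval of the limma fit. The Hey2 points lie together between 0.38 and 0.41, and the Hey2 bar is the one that does not cross 0.

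Nrarp, whose protein is induced by Notch and holds it back, was measured by 2 probe sets, which had the same sign within each pool. The brighter one, 1417985_at, had signals of 138.4, 192.6 and 199.4 in superior and 112.6, 233.6 and 150.7 in inferior pools 1, 6 and 7. It was higher in superior in pools 1 and 7, by 0.29 and 0.40, and lower in pool 6, by -0.27, and the regions overlapped. The dimmer one, 1417986_at, had the same signs, with 0.47, -0.13 and 0.24. The differences were 0.14 ± 0.14 and 0.19 ± 0.18 (SE; limma adjusted p = 0.762 and 0.737). They were 0.34 and 0.35 without pool 6, 0.01 and 0.17 without pool 7, and 0.06 and 0.05 without pool 1, and were called in none of these.

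The fringe genes did not share a direction. Lfng, lunatic fringe, had signals of 30.0, 25.6 and 16.8 in superior and 19.2, 18.4 and 16.1 in inferior pools 1, 6 and 7. Its pool differences of 0.57, 0.42 and 0.05 were all above 0, but superior pool 7 lay below inferior pools 1 and 6. The mean of 0.34 ± 0.20 (SE; 95% interval -0.11 to 0.80; limma adjusted p = 0.556) was the second largest of the tested members. Its other probe set, 1449943_at, read 1.5 at most and was above background on no array. Mfng, manic fringe, had signals of 31.0, 32.8 and 41.2 in superior and 38.1, 37.4 and 44.8 in inferior pools. The superior value was the lower one in every pool, the regions overlapped, and the difference was -0.19 ± 0.15 (SE; limma adjusted p = 0.692).

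Rfng, radical fringe, had signals of 113.1, 103.3 and 117.2 in superior and 115.9, 144.3 and 95.2 in inferior pools 1, 6 and 7 for its brighter probe set, 1460704_at. The pools ran in both directions, with -0.03, -0.47 and 0.29, and the mean was -0.07 ± 0.15 (SE; limma adjusted p = 0.903). Without pool 6 that mean was 0.13. The dimmer 1421160_a_at gave 0.40, -0.67 and 0.69, a mean of 0.14, and -0.14 without pool 7. In both, pool 6 was lower and pool 7 higher in superior.

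Rbpj, the DNA-binding partner of Notch, was measured by 3 probe sets, and in each of them the pools ran in both directions. The brightest, 1454896_at, had signals of 240.3, 285.1 and 249.0 in superior and 272.4, 264.9 and 321.7 in inferior pools 1, 6 and 7, and differed by -0.15 ± 0.11 (SE; limma adjusted p = 0.676). The next, 1448957_at, had 160.6, 163.1 and 172.5 against 154.5, 175.6 and 139.9, a difference of 0.08 ± 0.12 that was -0.02 without pool 7. The dimmest, 1418114_at, had 35.4, 31.1 and 35.1 against 29.6, 52.7 and 33.9. Its difference of -0.14 ± 0.21 rested on inferior pool 6 and was 0.14 without that pool. In every pool the sign of the brightest probe set was opposite to that of 1448957_at.

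The pool moved some members more than the region did. Nrarp was lower in pool 1 than in the mean of pools 6 and 7 by -0.61 (1417985_at) and -1.16 (1417986_at) on the log2 scale, and its pool 1 value was the lowest in both regions. The Rfng probe set 1421160_a_at differed by -1.23 in the same way, while the brighter Rfng probe set differed by 0.01. Hes1 differed by -0.39, Hey2 by 0.12 and Hey1 by 0.01. Pool 1 also held the arrays with the highest 3′ to 5′ Gapdh ratio, and the part of RNA integrity in these pool differences was not tested. The pool 1 difference was larger in size than the region difference in 7 of 14 tested member probe sets, against 66.8% of all tested.

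**Figure D3:**
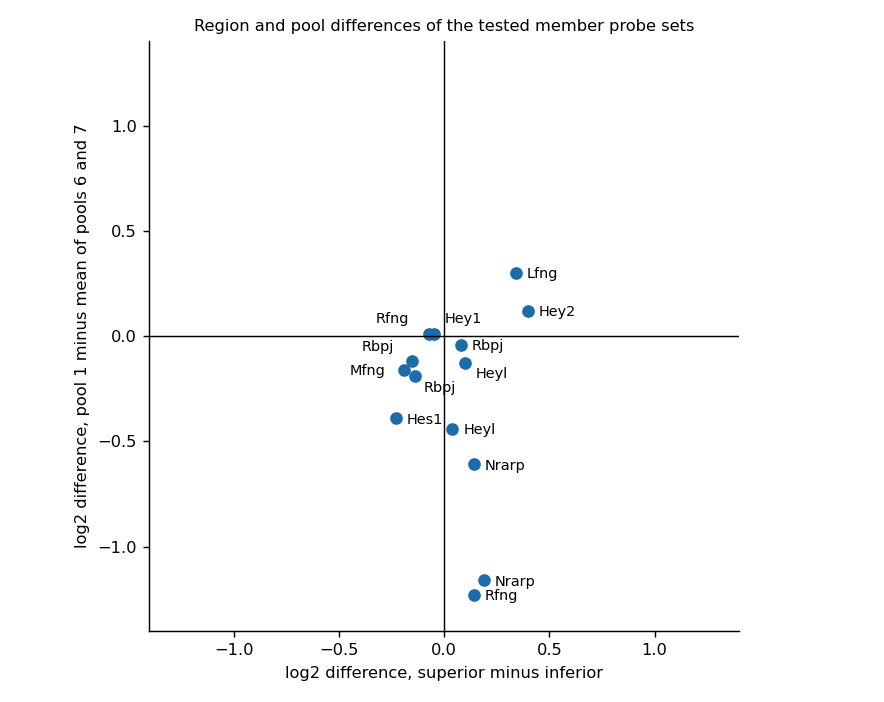
Log2 difference between regions (superior minus inferior, x axis) and between pools (pool 1 minus the mean of pools 6 and 7, y axis) for the 14 tested member probe sets, both axes to the same scale. The Nrarp probe sets and the dimmer Rfng probe set lie well below 0 on the pool axis, while all region differences stay between -0.23 and 0.40.

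The rest of the Notch pathway was measured in the same fit, with 1 probe set for each gene, the one of highest mean signal. Of 11 receptor and ligand genes, 8 were tested 0 were called and 3 passed at an unadjusted p under 0.05 (limma), and 7 of the 8 were lower in superior pools (50.8% of all genes), with a median of -0.13. Notch3, a receptor best known from smooth muscle, had the lowest value, -0.36 ± 0.10 (SE; limma adjusted p = 0.283), and its regions did not overlap. The receptors Notch4, Notch2 and Notch1 gave -0.27, -0.22 and -0.13, and the ligand Jag1 gave -0.14. Dll1, another ligand, gave 0.30 and was the 1 tested gene of this list above 0. Dlk1, a related membrane protein, had pool differences of -0.13, 0.28 and -0.29. Markers of the neural crest, cushion mesenchyme and second heart field had medians below 0 as well, at -0.32, -0.15 and -0.11, and their part in the receptor and ligand differences was not tested.

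Among 40 tested genes of Notch processing, trafficking and nuclear cofactors, 0 were called (limma), 5 passed at an unadjusted p under 0.05, 13 were higher and 27 lower, and the median was -0.09. The lowest were Neurl1b and Dtx4, ubiquitin ligases of the pathway, at -0.54 and -0.44. Tle3, a co-repressor of the Groucho family that Hes proteins recruit, gave -0.31 (limma adjusted p = 0.37). Of 7 tested relatives of the Hes family, 3 were higher and 4 lower, with 0 called and 0 at an unadjusted p under 0.05. The Id genes Id1, Id2 and Id3, helix-loop-helix proteins that lack a DNA-binding part, lay between -0.05 and 0.01, and Id4 gave -0.20 with pool differences of -0.21, -0.49 and 0.08. Of 20 tested genes known to respond to Notch in heart or vessels, 17 were lower in superior pools, 0 were called and 10 passed at an unadjusted p under 0.05 (11.0% of all tested), with a median of -0.19. Fgf8, a growth factor of the second heart field, was the lowest at -1.03 (limma adjusted p = 0.0932). Snai1, a driver of cushion formation, gave -0.52 (limma adjusted p = 0.38), and its regions did not overlap. Nppa, at 2.24, was the highest. The list does not separate genes that Notch raises from genes that it lowers, so the count gives no direction of Notch output. Many of these genes also answer to other signals, and several are markers of a cell type above: Sox9 and Snai2 of cushion mesenchyme, Isl1 and Fgf8 of the second heart field, Acta2 of smooth muscle, and Nppa of chamber muscle. The part of those cell types in the lower values of this list was not tested. Without pool 6, Fgf8 and Nppa were called, and without pool 7, Nppa alone.

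**Figure D4:**
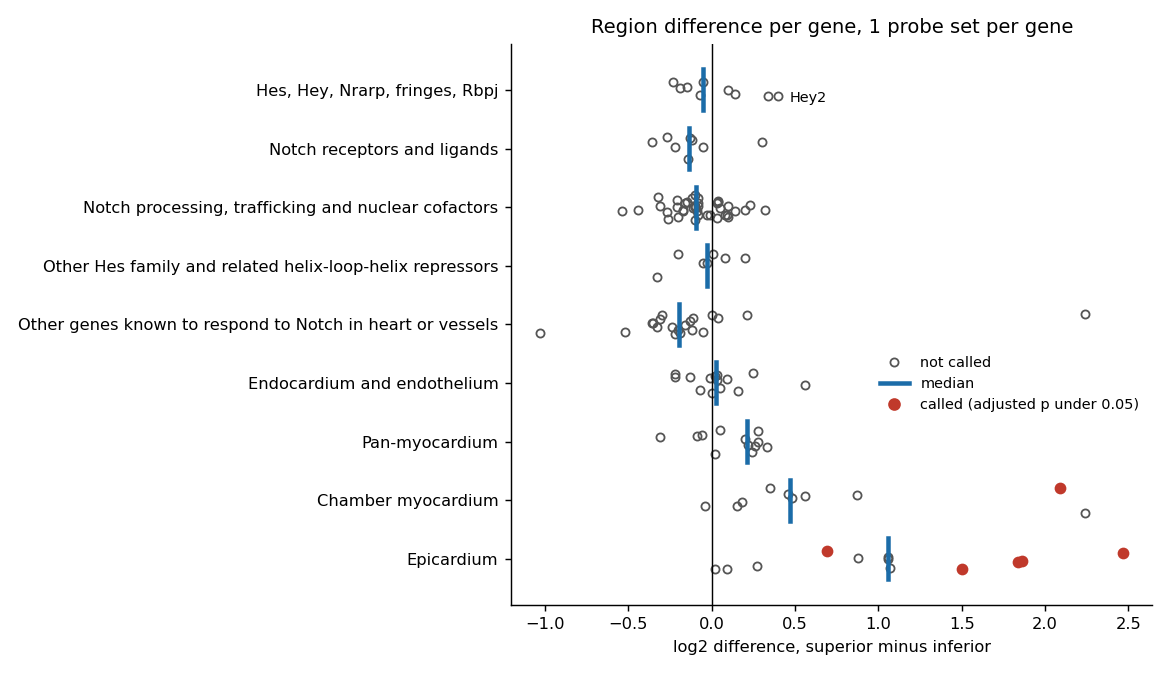
Log2 difference, superior minus inferior (x axis), of each tested gene with 1 probe set per gene, grouped by list (y axis), with blue bars for list medians and filled points for genes called at an adjusted p under 0.05. The members lie around 0 with Hey2 at their right end at 0.40, and the filled points are in the chamber myocardium and epicardium lists.

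The genes whose profiles over the 6 arrays were most like those of Hey2 and Lfng, the members with the largest differences, were found by the root-mean-square difference of log2 values, each centred on its own mean. For Hey2 these were Spats2l (0.055), Asnsd1 (0.065) and Psat1 (0.068), where the Hey2 profile itself had a root-mean-square size of 0.242. Their region differences were 0.39, 0.30 and 0.37, and none was called (limma adjusted p = 0.299, 0.298 and 0.264). For Lfng they were Srd5a3 (0.084), Mrrf (0.086) and Mfap5 (0.091), against a size of 0.285. With 11195 genes and 6 arrays, close profiles are a description only.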

How the data were processed

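Total RNA of 3 superior and 3 inferior pools was hybridised singly to Affymetrix Mouse Genome 430 2.0 arrays. The deposited intensity values, on a linear scale, came from MAS5 according to the submitters' processing notes, with no version given. The authors scaled each array to a trimmed mean of 100.0, as the deposited values show. Gene names came from the platform annotation and were checked by gene ID against RefSeq (GRCm38.p6), which changed 0 symbols. Of 45037 probe sets, 34945 named 1 gene, 932 several, and 9160 were not named here.

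Signals were turned into log2(signal + 3.2), the offset being their 25th percentile, and probe sets with a mean above the median were tested (22518). Regions were compared with limma 3.58.1 in R 4.3.3 (lmFit, eBayes with trend and robust variance), with the pool number as a block and Benjamini-Hochberg adjustment over all tested probe sets. The block follows the comparison asked for. Deviations of same-numbered arrays from their region means correlated at 0.79, 0.43 and 0.51 in pools 1, 6 and 7, all above the limit of 0.1. Unlike-numbered arrays of pools 6 and 7 correlated at 0.18 and 0.20, also above that limit. Passing it therefore does not show that the numbers pair the arrays. Unlike-numbered pairs with a pool 1 array correlated at -0.46 to -0.54. The labels do not say whether the numbers pair the arrays. The fit was tested on simulated data, and scipy 1.17.1 gave the exact permutation test. Arrays hold no depth, and their number limits the precision.

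All members were described. Of the other genes, those called, up to 4 per list with the largest differences, and receptors and ligands were eligible to be named. Myl2, Tnnt2, Actc1, Tle3, Id1, Id2, Id3, the genes shared by 2 lists and the markers not above background were chosen after their values were seen. So were Myh7, Myl7, Ttn, Mybpc3, Actn2, Tnni3, Myh6, Col3a1, Vcan, Tagln, Cnn1, Ednrb and Sox10. The members and lists were chosen with earlier results of these data known. Alternatives were the fit without the block, other offsets, filters, scalings and variance settings, and each pool left out.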

Additional observations from a re-analysis of the deposited data

How the results depend on the processing

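The count of 0 called member probe sets held in all 12 alternatives run: the fit with no pool block, offsets of 1 and 16, no filter, the top 25% by signal, eBayes without trend and robust variance, 3 scalings, and each pool left out. The Hey2 difference stayed between 0.38 and 0.43 in these, with adjusted p from 0.108 to 1. The block, the filters and the variance setting cannot change this difference, which is the mean of the pool differences. The calls over all probe sets were not stable. They numbered 36 with the pool block, 0 without it (the pairing by pool number thus changed no member call), 22 with an offset of 1, 1 without the filter, 2 in the top 25% and 0 without trend and robust variance, and 9 to 231 with a pool left out. The cause was not tested. The calls in the Notch pathway lists ranged from 0 to 2 with a pool left out. The median of all member probe sets ranged from -0.01 to 0.16 with a pool left out. With each pool left out, the difference ranged from -0.33 to 0.14 for Rbpj 1418114_at, -0.39 to 0.39 for Heyl 1438886_at and -0.25 to 0.13 for Rfng 1460704_at, whose sign turned without pool 6. It ranged from -0.14 to 0.54 for Rfng 1421160_a_at and -0.02 to 0.18 for Rbpj 1448957_at, whose sign turned without pool 7. The paired fit has 2 residual degrees of freedom, so its p-values rest on variance shared across probe sets, and signals near background limit Hes5, the dimmer Lfng probe set and the dimmest Heyl probe set.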
